A study of Mus musculus with 3 samples.

Results

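A set of 10 genes of fatty acid uptake, lipid binding, lipid storage and caveolae were described in lymphatic endothelial cell libraries of the mouse large intestine. The members were the rows of the deposited tables whose symbol was Cd36, Fabp1, Fabp2, Fabp4, Fabp5, Gpihbp1, Lpl, Scarb1, Cav1 or Plin2, and all 10 were found among 24091 genes. The series holds 1 group of 3 libraries, here replicates 1, 2 and 3, from C57BL/6 mice. Cells from digested gut tissue were sorted on CD31, podoplanin and LYVE1, and total RNA was sequenced in bulk. No genotype, treatment, age or time point separates the libraries in the labels. The labels do not say whether they came from separate animals, so any spread or p-value below measures only the differences between these samples, which may be technical. Levels are in TPM (a transcript abundance scaled for transcript length and library size), as mean ± SD over 3 libraries unless a single library is named. Coordinates follow mm10.

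Long-chain fatty acids reach tissue cells bound to albumin or packed as triglyceride in lipoproteins. In capillaries, lipoprotein lipase is held on the endothelial surface by GPIHBP1 and releases fatty acids, which CD36 helps to take up, caveolae help to admit at the membrane, and small cytosolic fatty acid-binding proteins (FABPs) carry inside the cell. In the gut, enterocytes take up dietary fatty acids, bind them with their own FABPs and export them in chylomicrons, which leave the tissue through lymphatic vessels.

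The libraries held transcripts of several cell types, and replicate 3 stood apart. The summed TPM of 6 lymphatic endothelial markers was 1453, 1524 and 808 in replicates 1, 2 and 3, and that of 7 markers shared by all endothelium was 1368, 1166 and 834. Epithelial markers were far higher, with sums of 13449, 13996 and 15308 for 7 general, 6118, 8765 and 9342 for 5 colonocyte and 16263, 14382 and 13324 for 5 goblet cell genes. The 9 blood endothelial markers summed to 479.6, 431 and 663, 7 fibroblast markers to 182, 124 and 448, 6 smooth muscle and pericyte markers to 190.2, 154 and 357, and 8 macrophage markers to 248, 173 and 550.0. All fibroblast, smooth muscle and macrophage markers were highest in replicate 3, and all lymphatic and shared endothelial markers were lowest there. The 4 glial markers summed to between 4.31 and 8.83, and 6 adipocyte markers to between 3.89 and 6.47. In bulk RNA, fewer cells of a type and less RNA per cell cannot be told apart, and a level does not assign a transcript to a cell type.

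Of the 10 members, 9 had a TPM of at least 1 in each library, against 53.4% of all genes in the table. Fabp2 (intestinal FABP) was the most abundant at 270.1 ± 8.93, followed by Cav1 (caveolin-1) at 233 ± 49.3, Gpihbp1 at 153 ± 55.8, Fabp4 (adipocyte FABP) at 91.8 ± 49.4 and Plin2 (perilipin-2, a lipid droplet coat protein) at 78.9 ± 14.9. A lower set held Fabp5 (epidermal FABP) at 22.7 ± 4.15, Scarb1 (the scavenger receptor SR-BI) at 19.5 ± 4.57, Lpl (lipoprotein lipase) at 15.8 ± 1.98 and Cd36 at 9.32 ± 5.04. Fabp1 (liver FABP) came last at 0.489 ± 0.571. The 3 most abundant members made up 73.3% of the TPM of all 10. The median member had a TPM of 45.7 ± 13.8, against a median of 17.0 over all 12862 expressed genes. Together the members took 0.0950%, 0.0873% and 0.0861% of all TPM in replicates 1, 2 and 3.

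**Figure D1:**
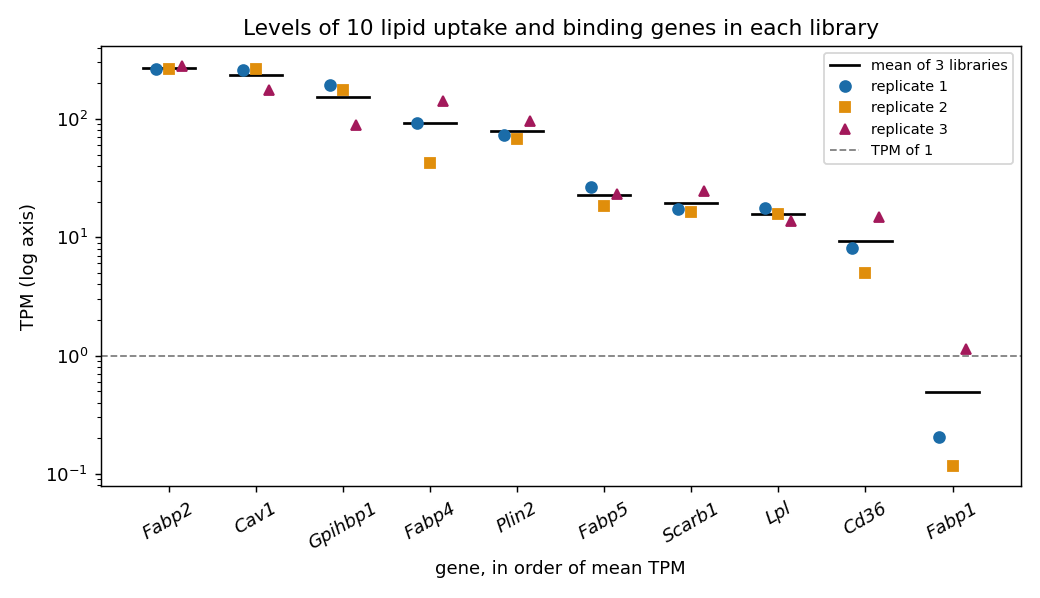
TPM of each member (log axis) in the 3 libraries, with the mean as a black bar and a dashed line at a TPM of 1. There, 9 genes lie above the line in all 3 libraries, and Fabp1 crosses it only in replicate 3, at 1.15.

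Few steps in this order were larger than the spread between libraries. Within a library, the log2(TPM + 1) difference of Cav1 over Gpihbp1 was 0.66 ± 0.29, that of Plin2 over Fabp5 was 1.75 ± 0.29 and that of Cd36 over Fabp1 was 2.74 ± 0.29, and these 3 orders held in 3 of 3 libraries. The other 6 neighbouring pairs had a mean difference below its SD and an order that held in 2 of 3 libraries. Fabp2 over Cav1 (0.23 ± 0.37), Gpihbp1 over Fabp4 (0.81 ± 1.36), Fabp4 over Plin2 (0.07 ± 0.65), Fabp5 over Scarb1 (0.22 ± 0.34), Scarb1 over Lpl (0.27 ± 0.46) and Lpl over Cd36 (0.81 ± 0.82) were of this kind. By the steps below Plin2 and below Cd36, the members form an upper group of 5, a lower group of 4 and Fabp1. The step of Cav1 over Gpihbp1 further parts Fabp2 and Cav1 from the rest of the upper group. Most neighbouring steps inside each group were within the spread. Members further apart in a group could differ beyond it. Cav1 minus Plin2 was 1.54 ± 0.58 and Cd36 minus Scarb1 was -1.08 ± 0.43, each with 1 direction in 3 of 3 libraries.

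Capillary lipolysis was examined first, through the anchor, the enzyme and their partners. Gpihbp1 (Entrez 68453, chromosome 15, 75596630 to 75598213), whose product binds lipoprotein lipase and carries it to the capillary lumen, had a TPM of 193, 176 and 88.9 in replicates 1, 2 and 3. Its level was high in replicates 1 and 2 and lower in replicate 3. Lpl (Entrez 16956, chromosome 8, 68880555 to 68906932), the enzyme itself, had 17.8, 15.8 and 13.8, a narrower range with the same order of libraries. The anchor transcript exceeded the enzyme transcript 10.9-fold, 11.1-fold and 6.42-fold in TPM. The within-library difference of log2(TPM + 1) was 3.12 ± 0.45, above 0 in 3 of 3 libraries. The two-sided exact permutation test, which flips the signs of these differences, gave p = 0.25. That is the lowest p possible with 3 libraries, and it was also 0.25 when adjusted (Benjamini-Hochberg) for the 6 pairs of members compared. The same raw and adjusted exact p of 0.25 applies to each of the other 5 pairs below, so no pair could pass a threshold of 0.05.

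Of 10 listed partners and relatives of lipoprotein lipase, 6 passed TPM 1 in each library. The maturation factor genes Lmf1 (25.4 ± 0.426) and Sel1l (23.3 ± 5.68), needed for the lipase to fold in the endoplasmic reticulum, and Lipg (12.8 ± 3.52), which encodes endothelial lipase, were the 3 highest. Each of the first 2 lay above Lpl itself in mean TPM. The list's median TPM was 2.82 ± 0.493. None of the 10 was listed at 0 in all libraries.

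Adipocytes and macrophages also make the lipase, and their markers were read beside it. Of the 6 adipocyte markers, Lep was listed at 0 in all 3 libraries, Plin1 stayed at or below 0.0231 and Adipoq had 0.297, 0 and 0.220. Retn had 0.631, 0.357 and 0 in replicates 1, 2 and 3. Cidec (1.11, 1.94 and 2.04) and Slc2a4 (1.91, 1.60 and 4.18) were above a TPM of 1 in each library. Macrophage markers were higher in replicate 3, where Lpl was lowest. The part of adipocytes and macrophages in the level of Lpl was not tested. Gpihbp1 was set beside the lymphatic marker Lyve1 and the blood endothelial marker Car4. Its ratio to Lyve1 was 0.355, 0.288 and 0.283 in replicates 1, 2 and 3, while its ratio to Car4, which is also known in colon epithelium, was 1.35, 1.18 and 0.307. Both ratios were chosen after their values were seen. Of the 9 blood endothelial markers, 6 were highest in replicate 3, and the other 3 (Cd300lg, Rgcc and Emcn) were lowest there, as Gpihbp1 was. Which cells carried Gpihbp1 was not tested.

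Fatty acid uptake at the membrane was read from Cd36 and Scarb1. Cd36 (Entrez 12491, chromosome 5, 17781690 to 17888959) encodes a fatty acid translocase found on capillary endothelium, macrophages and enterocytes. Its TPM was 8.18, 4.94 and 14.8 in replicates 1, 2 and 3, high in the third library and low in the second. Scarb1 (Entrez 20778, chromosome 5, 125277087 to 125341094) encodes a receptor that takes up cholesteryl ester from high-density lipoprotein, and stood at 17.3, 16.4 and 24.7. Both genes had the same order of libraries. Scarb1 exceeded Cd36 2.12-fold, 3.32-fold and 1.67-fold in TPM, and the difference of Cd36 minus Scarb1 was -1.08 ± 0.43 on the log2(TPM + 1) scale, below 0 in 3 of 3 libraries. All 8 macrophage, 7 fibroblast and 6 smooth muscle and pericyte markers were highest in replicate 3, as Cd36 was, beside 40.5% of expressed genes. The part of these cell types in the level of Cd36 was not tested.

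The other uptake genes included a family of fatty acid transport proteins. Of 7 transporter genes, 5 passed TPM 1 in each library, with a median of 8.82 ± 1.40. Got2, a mitochondrial aminotransferase that also occurs at the plasma membrane as a fatty acid-binding protein, averaged 80.4 ± 5.19, Slc27a4 (FATP4, the transport protein of enterocytes) 29.2 ± 5.58 and Slc27a1 (FATP1) 24.3 ± 4.52. Slc27a6 was listed at 0 in all 3 libraries. Each of these 3 exceeded Cd36 in mean TPM. Among acyl-CoA synthetases, which trap fatty acids as acyl-CoA, and the acyl-CoA-binding gene Dbi, 5 of 6 genes passed, led by Dbi (831 ± 26.7), Acsl5 (66.1 ± 3.08) and Acsl3 (55.9 ± 5.87), with a list median of 33.9 ± 3.92. Of 9 lipoprotein and scavenger receptor genes besides Scarb1, 6 passed (median 5.27 ± 0.652). Stab1, a scavenger receptor of lymphatic and sinusoidal endothelium and of macrophages, led with 131, 106 and 73.6 in replicates 1, 2 and 3. It was lowest in replicate 3, as the lymphatic markers were. Scarb2, which encodes a lysosomal relative of SR-BI, averaged 45.5 ± 4.99.

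The cytosolic FABPs showed the widest contrast among the members. Fabp2 (Entrez 14079, chromosome 3, 122895072 to 122899506) had a TPM of 264, 266 and 280.4 in replicates 1, 2 and 3, nearly the same in each. Fabp1 (Entrez 14080, chromosome 6, 71199879 to 71205034) had 0.204, 0.116 and 1.15, near the floor in the first 2 libraries and higher in the third. Both proteins are enterocyte FABPs, and both genes are known for their high expression in the small intestine. The difference of Fabp1 minus Fabp2 was -7.57 ± 0.47 on the log2(TPM + 1) scale, below 0 in 3 of 3 libraries. In TPM, Fabp2 was 1294-fold, 2299-fold and 245-fold above Fabp1, ratios that rest on very few Fabp1 fragments. From regular steps among low TPM values, Fabp1 was estimated to rest on about 2, 1 and 11 fragments in replicates 1, 2 and 3.

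Since Fabp1 and Fabp2 differed most, the 250 bases before the RefSeq start of each (build GRCm38.p6, plus strand) are shown, at chr6:71199629-71199878 for Fabp1 and chr3:122894822-122895071 for Fabp2. Capitals mark matches on either strand to the TATA box motif TATAAA, the nuclear receptor half-site AGGTCA (which reads TGACCT when on the other strand), the GATA factor motif GATAAG, the HNF1 half-site GTTAAT or the GC box GGGCGG.
Fabp1: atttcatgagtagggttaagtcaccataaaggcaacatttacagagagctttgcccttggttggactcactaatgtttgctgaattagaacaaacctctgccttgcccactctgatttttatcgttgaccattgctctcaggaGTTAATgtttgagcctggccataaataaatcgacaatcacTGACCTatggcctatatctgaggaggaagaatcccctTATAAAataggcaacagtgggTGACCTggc
Fabp2: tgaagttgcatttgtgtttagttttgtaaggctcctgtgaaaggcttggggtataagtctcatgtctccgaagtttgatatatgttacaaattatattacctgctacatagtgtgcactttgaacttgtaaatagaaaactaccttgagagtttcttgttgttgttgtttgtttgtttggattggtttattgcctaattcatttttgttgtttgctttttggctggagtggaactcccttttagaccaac

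The Fabp1 window held 1 TATA box at position -30 from the start, 2 nuclear receptor half-sites at -67 and -9 on the opposite strand, and 1 HNF1 half-site at -107, none overlapping another. The Fabp2 window held no match to any of the 5 motifs. Over 32851 windows of the same length before RefSeq starts, 12.4% held the TATA box, 14.0% the nuclear receptor half-site, 6.55% the GATA site, 6.43% the HNF1 half-site and 32.7% the GC box. The GC content was 42.8% for Fabp1 and 35.6% for Fabp2, against a median of 52.4%. GENCODE M21 places the Fabp1 start 52 bases further upstream, which would put the TATA match inside the transcript, and gives Fabp2 the same start as RefSeq. The matches describe letters only.

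Other genes of the small intestinal enterocyte were read beside Fabp1. Apoa1 had 0.272, 0.0877 and 15.3 in replicates 1, 2 and 3, Apoa4 had 0, 0 and 6.86, and Apoc3 had 0.114, 0 and 1.60. These apolipoprotein genes of chylomicrons and Fabp1 were near the floor in replicates 1 and 2 and present in replicate 3. The brush border genes Sis (0.376, 0.636 and 0.328), Lct (0.0258, 0.0408 and 0.0255) and Alpi (4.44, 7.09 and 6.22) were not highest there, nor was the retinol-binding gene Rbp2 (33.6, 22.3 and 30.5). The 7 genes summed to 38.8, 30.2 and 60.9, and no defining marker was listed at 0 in all libraries. Of the 5 chylomicron assembly genes, 2 passed TPM 1 in each library: Sar1b (87.1 ± 3.26), which acts in vesicle export from the endoplasmic reticulum in many cells, and Apob (3.10 ± 1.56). Apob had 1.30, 3.96 and 4.04 in replicates 1, 2 and 3, so it was not raised in replicate 3 alone. The list median was 2.92 ± 3.40. The source of the Apoa1, Apoa4 and Fabp1 transcripts in replicate 3 was not tested.

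Fabp4 and Fabp5 lie close together on chromosome 3. Fabp4 (Entrez 11770, 10204342 to 10208616), known in adipocytes, macrophages and capillary endothelium, had a TPM of 92.6, 42.1 and 141 in replicates 1, 2 and 3, with a wide gap between each. Fabp5 (Entrez 16592, 10012585 to 10016610), known in epidermis, endothelium and macrophages, had 26.5, 18.3 and 23.3. Fabp4 exceeded Fabp5 by 1.82 ± 0.70 on the log2(TPM + 1) scale, in 3 of 3 libraries, and by 3.49-fold, 2.30-fold and 6.05-fold in TPM. Fabp2 exceeded Fabp5 by 3.53 ± 0.26, also in 3 of 3. Between Fabp5 and Fabp4 on this chromosome lie the family genes Pmp2 (10179851 to 10183885) and Fabp9 (10193623 to 10197283), both listed at 0 in all 3 libraries, and just beyond Fabp4 lies Fabp12 (10244209 to 10301515) at 0.0442 ± 0.0124. Neighbours within this cluster therefore ranged from no signal to a TPM above 90.

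Of the 6 FABP family genes that are not members, 1 passed TPM 1 in each library, and the median of the 6 was 0.219 ± 0.123. That gene was Fabp6, which encodes the ileal bile acid-binding protein, at 13.3, 12.02 and 14.2 in replicates 1, 2 and 3. Fabp3, the heart FABP, had 0.206, 0.856 and 1.28, or about 4, 16 and 21 estimated fragments, and Fabp7, the brain FABP of glia, had 0.704, 0.306 and 0.671. Of the TPM of all 10 family genes, Fabp2 took 68.5 ± 8.97%, Fabp4 22.1 ± 9.11%, Fabp5 5.70 ± 0.859% and Fabp6 3.32 ± 0.235%. The share of Fabp4 was 23.3%, 12.4% and 30.5% in replicates 1, 2 and 3, and that of Fabp2, which is lower where the others are higher since shares add up, was 66.4%, 78.3% and 60.7%.

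**Figure D2:**
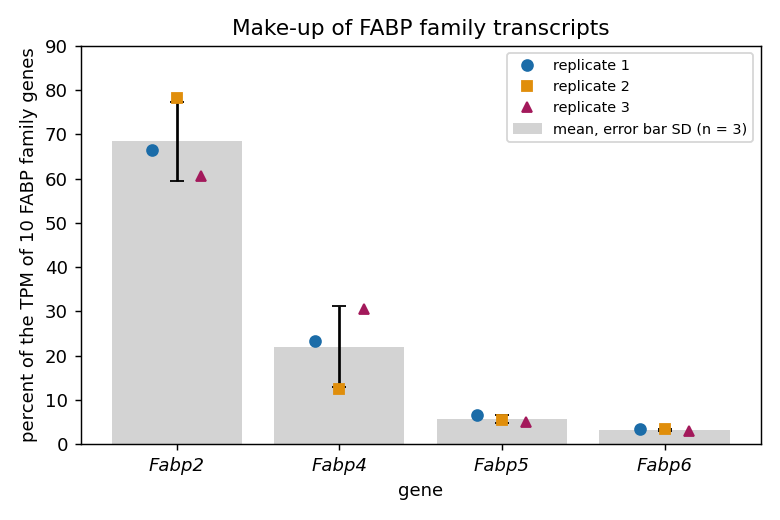
Share of the summed TPM of 10 FABP family genes (percent) held by each of the 4 most abundant, as bars of the mean with SD error bars (n = 3) and points for the libraries. Fabp2 holds between 60.7% and 78.3%, and Fabp4 between 12.4% and 30.5%.

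Caveolae are small pits of the plasma membrane, abundant in endothelium and adipocytes, whose coat is built by caveolins and cavins. Cav1 (Entrez 12389, chromosome 6, 17306335 to 17341328) had a TPM of 257, 267 and 177 in replicates 1, 2 and 3, similar in the first 2 libraries and lower in the third. Of the 8 other caveola genes, 6 passed TPM 1 in each library, and the list's median, 54.9 ± 2.29, was the highest of the 9 pathway lists. Cavin2 (listed under its older symbol Sdpr) had 234, 221 and 126, with the same lower value in replicate 3. Cavin1 (as Ptrf), the cavin needed to form caveolae, averaged 125 ± 11.5, Cavin3 (as Prkcdbp) 88.2 ± 10.2, Pacsin2 58.4 ± 6.13, Ehd2 51.4 ± 5.37 and Cav2 43.3 ± 5.72. The muscle genes Cav3 (0.422 ± 0.398) and Cavin4 (as Murc, 0.232 ± 0.115) were below 1 in every library. Cav1 exceeded Cav2, its partner in mixed caveolin complexes, 5.48-fold, 5.76-fold and 4.82-fold in TPM, and Cavin1 1.87-fold, 2.33-fold and 1.42-fold. These ratios were chosen after the values were seen.

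Plin2 (Entrez 11520, chromosome 4, 86626910 to 86670217), which coats lipid droplets in most cell types, had a TPM of 73.5, 67.5 and 95.7 in replicates 1, 2 and 3, highest in the third. Cav1 exceeded Plin2 by 1.54 ± 0.58 on the log2(TPM + 1) scale, in 3 of 3 libraries, and by 3.49-fold, 3.95-fold and 1.85-fold in TPM. Of 17 further lipid droplet genes, 12 passed TPM 1 in each library, with a median of 8.66 ± 2.06. Pnpla2, the adipose triglyceride lipase, averaged 70.9 ± 2.93, Plin3, a perilipin found in many tissues, 70.7 ± 9.22 and Cideb, a droplet protein of liver and intestine, 50.5 ± 9.60. Plin2 and Plin3 were close in level, with a Plin2 to Plin3 ratio of 1.17, 0.987 and 1.18. The perilipin of adipocytes, Plin1, averaged 0.0140 ± 0.0123.

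All 10 genes listed as regulators of fatty acid handling passed TPM 1 in each library (median 18.1 ± 4.92). Hnf4a, a nuclear receptor of gut epithelium and liver, led with 125, 225 and 236 in replicates 1, 2 and 3, followed by the fatty acid-sensing receptors Ppard (76.3 ± 17.5) and Pparg (54.9 ± 10.6). Hnf4a, Ppard and Pparg were lowest in replicate 1, as were the colonocyte sum and 63.2% of all expressed genes. Across all 9 lists, 53 of 78 genes passed TPM 1 in each library, beside 53.4% of all genes, and their median mean TPM was 7.32.

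**Figure D3:**
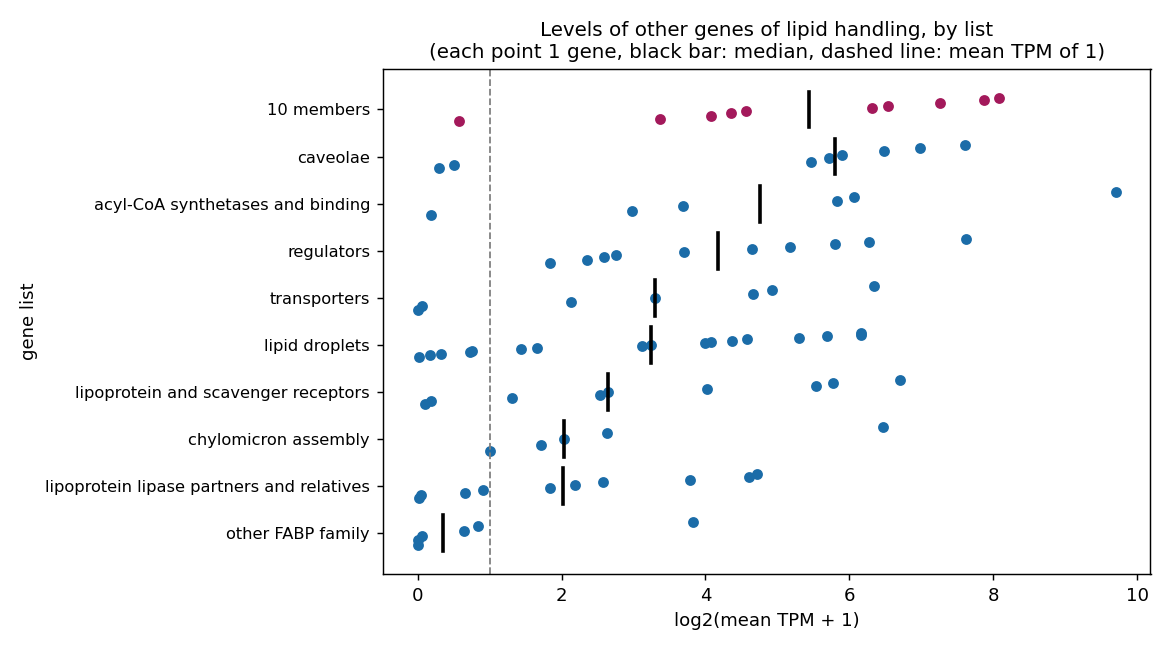
Levels of the 78 other lipid-handling genes in 9 lists and of the 10 members, as log2(mean TPM + 1), with 1 point a gene, a black bar at the median of the plotted values and a dashed line at a mean TPM of 1. Caveola genes have the highest median of the 9 lists and the other FABP genes the lowest.

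The members differed in how much they varied between libraries. Of the 9 expressed members, 3 had a highest TPM at least 2-fold above the lowest, beside 8.42% of expressed genes. They were Fabp4 (3.35-fold), Cd36 (3.002-fold) and Gpihbp1 (2.17-fold). Without replicate 2, the ratio was 1.52 for Fabp4 and 1.81 for Cd36, and without replicate 3 it was 1.66 for Cd36 and 1.10 for Gpihbp1. Without replicate 1, that of Gpihbp1 was 1.98. Fabp2 was the steadiest at 1.06-fold. The median ratio was 1.51 over the 9 expressed members and 1.31 over all expressed genes. Fabp1, below a TPM of 1 in 2 libraries, had a ratio of 9.91, which was 1.76 without replicate 3.

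The direction of these differences split the members. Of these 9 members, 5 (Cd36, Fabp2, Fabp4, Scarb1 and Plin2) were highest in replicate 3, beside 40.5% of expressed genes, and 3 (Gpihbp1, Lpl and Cav1) were lowest there, beside 22.9%. Replicate 2 held the lowest value of 5 (Cd36, Fabp4, Fabp5, Scarb1 and Plin2), beside 13.9%, and the highest of 1 (Cav1), beside 42.4%. Replicate 1 held the highest value of 3 (Fabp5, Gpihbp1 and Lpl), beside 17.1%, and the lowest of 1 (Fabp2), beside 63.2%. The median expressed gene itself lay 0.13 below its mean over libraries in replicate 1 and 0.08 and 0.06 above it in replicates 2 and 3 (log2). With median-of-ratios scaling, which moved replicate 1 up by 0.15 and replicates 2 and 3 down by 0.08 and 0.09 (log2), Fabp2 and Cav1 became highest in replicate 1 and Fabp2 lowest in replicate 2. Without ribosomal protein genes, Cav1 was highest in replicate 1 and Fabp2 lowest in replicate 2. The 3 members lowest in replicate 3 were the same under both scalings.

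Deviations of the members were set beside those of the marker lists, as a description over 3 libraries. In replicate 3, Gpihbp1 lay 0.70 and Cav1 0.38 below their means (log2), and the lymphatic and shared endothelial lists 0.51 and 0.33 below theirs. Fabp4 lay 0.77 and Cd36 0.73 above their means, and the fibroblast, macrophage, small intestinal enterocyte, smooth muscle, blood endothelial, colonocyte and glial lists 1.01, 0.82, 0.78, 0.65, 0.55, 0.45 and 0.33 above. In replicate 2, Fabp4 lay 0.95 and Cd36 0.68 below, with the fibroblast, macrophage, smooth muscle and blood endothelial lists between 0.45 and 0.73 below, the small intestinal enterocyte list 0.40 below, the glial list 0.31 below and the colonocyte list 0.07 below. The SD of the difference between a member and the mean of a list was smallest against the lymphatic list for Gpihbp1 (0.18) and Cav1 (0.12), and against the macrophage list for Cd36 (0.14) and Fabp4 (0.36). For Cd36 it was 0.20 against the smooth muscle and pericyte list, 0.21 against the blood endothelial list and 0.26 against the fibroblast list. For Fabp4 these values were 0.45, 0.43 and 0.39. For Fabp4 the smallest SD was against the fibroblast list with list medians (0.34) and the blood endothelial list with a pseudocount of 0.1 (0.36), and for Cav1 against the shared endothelial list with that pseudocount (0.12). Among the other members, the smallest SD was against the glial list for Plin2 (0.087) and Scarb1 (0.10) and the adipocyte list for Fabp5 (0.23). For Fabp1 it was against the smooth muscle and pericyte list (0.087) and for Fabp2 the goblet list (0.041), with the adipocyte list close at 0.043. For Lpl it was against the shared endothelial list (0.14). List medians moved the smallest SD to the colonocyte list for Fabp1, epithelial for Fabp2, goblet for Scarb1 and Plin2, and blood endothelial for Lpl. A pseudocount of 0.1 moved it to the small intestinal enterocyte list for Fabp1, colonocyte for Scarb1 and epithelial for Plin2. A small SD over 3 libraries does not assign a member to a cell type. The part of these cell types in the members' levels was not tested.

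**Figure D4:**
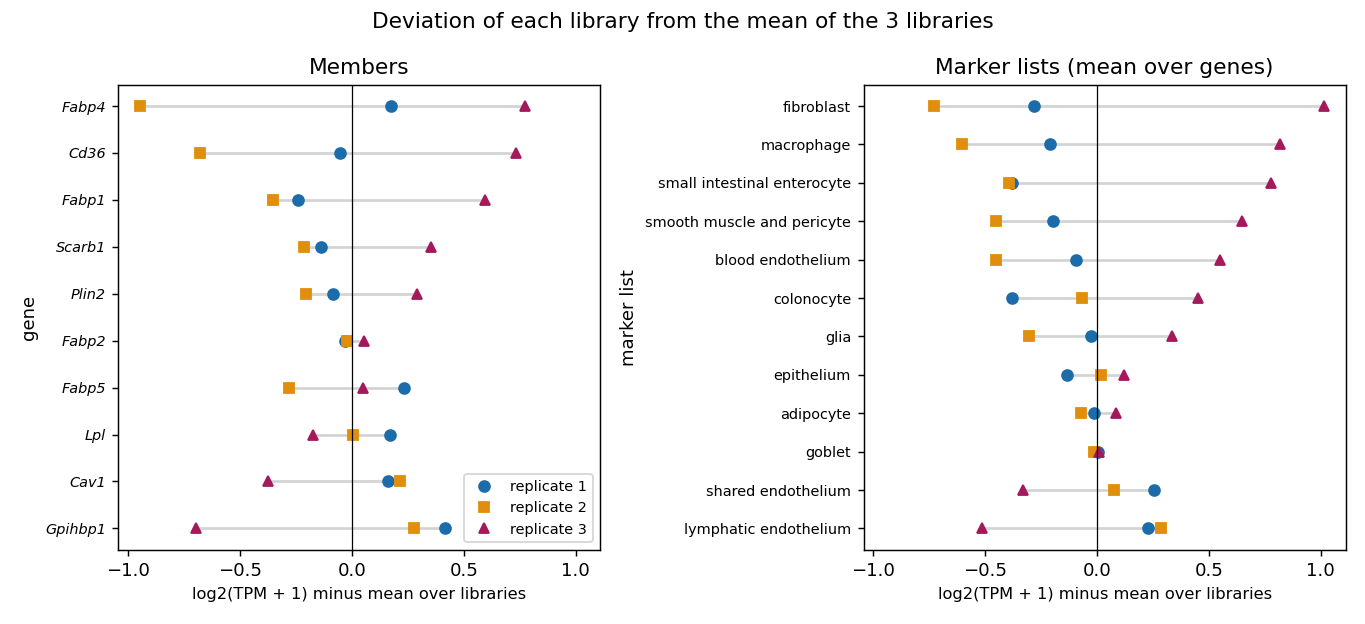
Deviation of each library from the mean of the 3 libraries, in log2(TPM + 1), for the members (left) and for the mean of each marker list (right), both sorted by replicate 3. Gpihbp1 and Cav1 lie low in replicate 3 with the lymphatic and shared endothelial lists. Fabp4 and Cd36 lie high there, as do the fibroblast, macrophage, small intestinal enterocyte, smooth muscle, blood endothelial, colonocyte and glial lists.

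The marker or pathway genes nearest to each member were found among 124 candidates by the root mean square difference of their log2 deviations over the 3 libraries. With 3 libraries, many genes share a profile, so the number of all 13605 other genes of mean TPM 1 or more that were as close is given. Gpihbp1 was nearest to Ecscr (0.03), an endothelial surface protein gene with 263, 230.2 and 121 TPM, and 4 genes were as close, Ecscr included. Its second nearest was Cavin2 (0.10, 26 genes). Cd36 was nearest to the macrophage gene Cd68 (0.02, 3 genes) and then to the fibroblast gene Lum (0.12, 69 genes). Fabp4 was nearest to Tcf15 (0.09, 4 genes), a transcription factor gene known in capillary endothelium, with 4.30, 1.61 and 6.36 TPM, and then to the macrophage gene Lyz2 (0.17, 27 genes). Cav1 was nearest to Tie1 (0.10, 284 genes) and Cav2 (0.11, 331 genes), and Lpl to Ehd2 (0.03, 122 genes) and Cd300lg (0.05, 341 genes). Fabp2, nearly flat, was nearest to the keratin gene Krt19 (0.01, 48 genes) and to Pnpla2 (0.01, 62 genes). Its ratio to Epcam, chosen after the values were seen, was 0.240, 0.228 and 0.242 in replicates 1, 2 and 3. Fabp5 was nearest to Rbp2 (0.04, 21 genes) and Meox2 (0.07, 56 genes), and Plin2 to Des (0.01, 11 genes) and Tff3 (0.06, 160 genes). Scarb1 was nearest to Des (0.03, 40 genes) and Mrc1 (0.07, 178 genes). Fabp1, itself below that mean TPM and so set against 13606 genes, was nearest to Tagln (0.02, 9 genes) and Slc2a4 (0.03, 10 genes). For Fabp1 this closeness depends on the log2(TPM + 1) scale, which flattens values below 1. Its highest TPM was 9.91-fold above its lowest, against 1.97-fold for Tagln. These distances were not computed with another pseudocount.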

How the data were processed

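The 3 libraries were deposited as 1 table each, with an Entrez ID, a symbol and a TPM value per gene, per the file headers. The authors' TPM values added up to 999939, 999907 and 999896 per library. Per the submitters' processing notes, the files involve mm10, Cell Ranger 6.0.1 and HTSeq, with no role given; how TPM was computed, the annotation and the read depth are not given in the sources used here. TPM keeps no depth: from steps among low values of single-transcript genes longer than 1000 bases, a TPM of 1 on 1000 bases was estimated as 32.3, 28.2 and 26.1 fragments in replicates 1, 2 and 3. It was applied to the shorter Fabp1 and Fabp3 with assumed transcript lengths of 553 and 823 bases. No counting intervals were computed from this estimate.

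Members and lists were chosen with earlier results of these data known. Values were taken as log2(TPM + 1). A gene counted as expressed when no library had less than 1 TPM, and variable when its highest TPM was 2-fold or more above its lowest. The 6 pairs of members were compared within libraries by a two-sided exact permutation test that flips the signs of the library differences, adjusted by Benjamini-Hochberg. Named genes were the members, all FABP and caveola genes, the 3 highest genes and any gene at 0 in each other pathway list, and the 2 genes nearest to each member. A gene that this rule covers is not reported here. Markers were named beside the results they moved with, and further ratios were chosen after values were seen. RefSeq annotation of GRCm38.p6, the same assembly as mm10, matched 24045 of 24091 IDs and gave coordinates and upstream sequences (5 of 10 members had one). The Cavin genes were matched by Entrez ID. Alternatives were a pseudocount of 0.1, 2 scalings, other TPM thresholds, medians of lists and leaving out each library. The 2-fold call was tested on simulated data with small noise and with added changes larger than 2-fold in well-expressed genes. That checks the code and not how the call behaves on these libraries. The permutation test, the adjustment and the log2 difference were checked on a few made-up values. The other steps were not tested in this way. Python 3.11.15, numpy 2.4.6, pandas 2.3.3 and matplotlib 3.10.9 were used.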

Additional observations from a re-analysis of the deposited data

How the results depend on the processing

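The 6 differences between members kept their direction under a pseudocount of 0.1, both scalings and without each replicate, with exact permutation p of 0.25, or 0.5 with 2 libraries, which no result could pass. The count of 9 expressed members was 9 or 8 under the other TPM thresholds. No comparison between groups was possible because the series holds 1 group, and members were compared within libraries. The fold of Cd36 over Fabp1 depends on the pseudocount: the log2 difference was 2.74 with 1 and 4.30 with 0.1. The marker list with the steadiest ratio was the same for 4 of 10 members with list medians and for 5 of 10 with a pseudocount of 0.1, and for 3 (Cd36, Fabp5 and Gpihbp1) under both. Rescaling without ribosomal protein genes raised the median expressed gene by 0.38, 0.32 and 0.31 (log2) in replicates 1, 2 and 3 and moved Fabp2 from 270.1 to a mean of 341 and Cav1 from 233 to 296. The low TPM of Fabp1 rests on few estimated fragments, which limits its ratios.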
